A study of Mus musculus with 30 samples.

Results

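The genes described here are 10 genes of the elastic fibre: Eln, Fbn1, Fbn2, Fbln1, Fbln2, Fbln5, Mfap4, Mfap5, Lox and Loxl1. They were taken as a fixed list by symbol, after the mouse Ensembl identifiers of the deposited count table had been matched to symbols, and all 10 were found among its 78334 gene identifiers. RNA had been sequenced from 30 libraries of cultured cells, given in the labels as mouse and aortic smooth muscle, in 9 groups and 2 sequencing runs, to study the long noncoding RNA CASC15. In run 2 the groups were a control GapmeR (2 libraries), a GapmeR against total CASC15 (2), a control plasmid (3) and a plasmid overexpressing total CASC15 (3), all without treatment. In run 3 each group had 4 libraries: a control GapmeR without treatment, with angiotensin II or with PDGF-BB, and a GapmeR against long CASC15 without treatment or with angiotensin II. A GapmeR is an antisense oligonucleotide whose DNA centre recruits RNase H to the RNA it binds. All groups shared 48 h without serum and a transfection of at least 24 h, and the 24 h treatments used 10 ng/ml of angiotensin II or 10 to 30 ng/ml of PDGF-BB. The growth protocol speaks of cells from mouse and from rat, while every library is labelled mouse. The labels also give each library a batch, P16 to P19. They name no strain, sex or age, and they do not say whether libraries of 1 group came from separate animals, so the p-values measure the spread between these libraries.

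Elastic fibres give arteries their recoil. Smooth muscle cells secrete tropoelastin (Eln), the soluble precursor, which is laid onto a scaffold of fibrillin microfibrils (Fbn1, Fbn2) together with microfibril-associated glycoproteins (Mfap4, Mfap5). Fibulins, above all fibulin-5 (Fbln5), help bring tropoelastin and its crosslinking enzymes to the microfibrils. Lysyl oxidase (Lox) and lysyl oxidase-like 1 (Loxl1) oxidise lysines of tropoelastin so that the chains crosslink into insoluble elastin. Most arterial elastin is made before adulthood, and cultured smooth muscle cells are known to differ widely in how much of it they make.

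Promoter windows from RefSeq (GRCm38.p6, 250 bases before to 50 bases after a gene's start, 300 bases in all) were matched by symbol for 4 of the 10 genes, Fbn1, Fbln1, Fbln2 and Fbln5. Eln, Fbn2, Mfap4, Mfap5, Lox and Loxl1 had no window. The windows of Fbln2 and Fbln5 are shown because these 2 fibulins moved in opposite directions in the same libraries. The Fbln2 window lies at chr6:91212514-91212813 on the plus strand. Fbln5 had 2 start sites, with windows at chr12:101819070-101819369 (window 1) and chr12:101818435-101818734 (window 2), both on the minus strand. Capitals mark the motifs found, on either strand.
Fbln2: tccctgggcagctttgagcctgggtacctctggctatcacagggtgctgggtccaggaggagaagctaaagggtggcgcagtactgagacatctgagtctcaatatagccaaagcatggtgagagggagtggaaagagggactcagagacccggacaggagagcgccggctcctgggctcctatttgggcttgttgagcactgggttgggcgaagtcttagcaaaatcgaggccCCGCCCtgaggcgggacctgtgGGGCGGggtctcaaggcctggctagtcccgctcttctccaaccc
Fbln5 window 1: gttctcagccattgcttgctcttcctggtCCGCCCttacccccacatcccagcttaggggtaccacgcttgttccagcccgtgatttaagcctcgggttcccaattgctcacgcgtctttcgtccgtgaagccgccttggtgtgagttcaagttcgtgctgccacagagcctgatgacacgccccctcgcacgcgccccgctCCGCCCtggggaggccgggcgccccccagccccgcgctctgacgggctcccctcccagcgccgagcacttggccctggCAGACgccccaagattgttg
Fbln5 window 2: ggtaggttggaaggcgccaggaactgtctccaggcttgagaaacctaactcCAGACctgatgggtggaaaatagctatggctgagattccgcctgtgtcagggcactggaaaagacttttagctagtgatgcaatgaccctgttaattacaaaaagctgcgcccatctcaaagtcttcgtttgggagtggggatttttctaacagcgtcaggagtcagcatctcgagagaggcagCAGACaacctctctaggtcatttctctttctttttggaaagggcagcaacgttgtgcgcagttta

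The motifs searched, on both strands and with overlaps allowed, were the TATA box spelled TATAAA, the GC box spelled GGGCGG, the AP-1 motif spelled TGANTCA, the SMAD element spelled CAGAC, the AP-2 motif spelled GCCNNNGGC, and the CArG box by its name alone. Of all 32851 windows of this length, 35.7% held the GC box, 49.6% the SMAD element, 16.6% the AP-2 motif, 13.6% the TATA box, 7.81% the AP-1 motif and 1.63% the CArG box. The Fbln2 window held 2 GC boxes, at -16 and 7 from the start site, and none of the other motifs. Window 1 of Fbln5 held 2 GC boxes, at -221 and -48, and 1 SMAD element at 31. Window 2 of Fbln5 held 2 SMAD elements, at -199 and -15, and no GC box. The letters of the SMAD element were in both Fbln5 windows and not in the Fbln2 window. The Fbn1 window held 1 GC box and 1 AP-2 match, and each of the 2 overlapping Fbln1 windows held 2 SMAD elements and 1 AP-2 match, the second of them also 2 GC boxes.

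Library totals ran from 18007184 to 21881948 counts in run 2 and from 15771489 to 30362053 in run 3. Levels are given as CPM, each gene's count over the scaled library total, with the scaling done within each run. Of the 10 markers of smooth muscle, Acta2 (96.5 to 441 CPM over the 30 libraries) and Smtn (42.2 to 103) were well measured, while the contractile markers Cnn1 (at most 0.224), Tagln (at most 3.45) and Des (at most 2.33) were near 0 and Myh11 had a median of 0.282. The summed level of 8 fibroblast markers was 685 to 2380 CPM, most of it from Dcn (563 to 2180). Sums over 8 endothelial and 8 leukocyte markers were 2.55 to 11.7 and 0.598 to 21.2 CPM, with Tie1, Cd3e, Cdh5 and Ptprc at or near 0. The mouse gene taken as CASC15, 2610307P16Rik, rose from 6.42 to 716 CPM with the plasmid and fell from 5.52 to 2.87 CPM with the long GapmeR. It did not fall in the libraries labelled total knockdown (9.01 against 7.02 CPM in their control), so those libraries are called that throughout.

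Per kilobase of exon, which allows levels of different genes to be compared, the 10 genes fell into 3 tiers. Fbln2 (mean of 144 CPM per kb over the 30 libraries), Lox (73.0), Fbn1 (30.3) and Fbln5 (27.6) formed the upper tier. Neighbours in this order overlapped: group means ran from 82.7 to 217 CPM per kb for Fbln2, 32.2 to 110 for Lox, 14.7 to 41.3 for Fbn1 and 7.34 to 48.6 for Fbln5. Fbln1 (0.546), Eln (0.379) and Loxl1 (0.339) lay far below them, with overlapping group means of 0.214 to 1.25, 0.103 to 0.952 and 0.0971 to 0.937. The order within tiers changed with the run. Fbln1, Eln and Loxl1 had means of 1.12, 0.528 and 0.654 in run 2, and of 0.26, 0.304 and 0.182 in run 3. Fbn1 and Fbln5 were at 30.1 and 35.6 in run 2 and at 30.4 and 23.6 in run 3. The lysine-oxidising enzyme Lox was thus far better represented than the precursor it acts on. Eln itself rested on 11 to 176 counts a library, so its values carry more counting error than those of the upper tier.

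The lowest tier was not measurable. Fbn2, the fibrillin known mainly from development, had 0 counts in all 30 libraries, which with 3 counts as the limit allows up to 0.19 CPM in the shallowest library. Mfap4, a microfibril-associated protein of mature arteries, had 0 to 8 counts and was at 0 in 20 libraries. Mfap5, which binds fibrillin microfibrils, had 0 to 4 counts and was at 0 in 25. These 3 did not pass the filter on low counts, and tests were run on the other 7. Counting limits cover sampling of reads only.

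**Figure D1:**
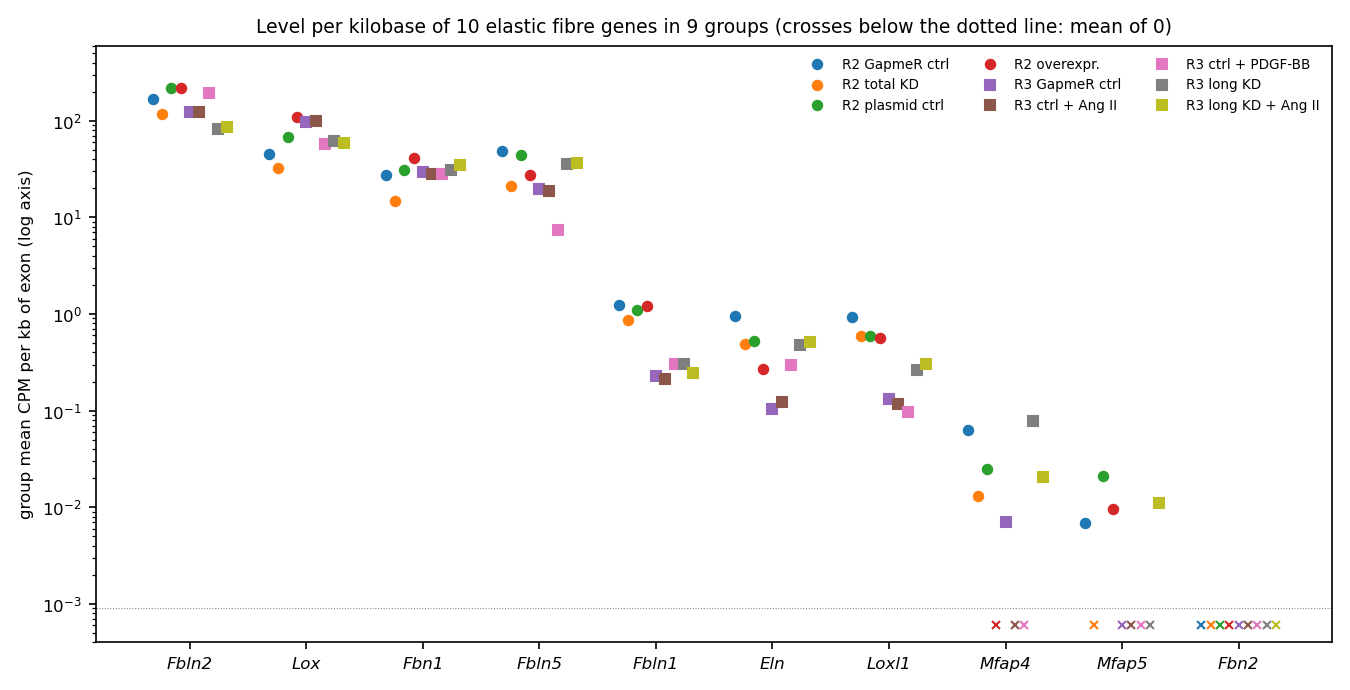
Group mean level per kilobase of exon (CPM per kb, log axis) of the 10 genes, 1 symbol per group; R2 and R3 are runs 2 and 3, KD knockdown, ctrl control, and crosses below the dotted line are means of 0. Fbln2, Lox, Fbn1 and Fbln5 lie at 7.34 CPM per kb or more in every group, and the other 6 genes at 1.25 or less.

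The GapmeR against long CASC15 was compared with its control first in untreated cells. Tropoelastin (Eln) rose 4.73-fold and fibulin-5 (Fbln5) 1.81-fold, while fibulin-2 (Fbln2) fell to 66.8% and lysyl oxidase (Lox) to 62.8% of the control. Of the 7 genes tested, 4 were called at an adjusted p under 0.05, 2 higher and 2 lower. Over all 15103 genes of the run, 25% were called, 12.3% higher and 12.8% lower. With the batch as a block the same 4 were called, against 40.6% of all genes. The median log2 fold change was 0.43 over the 7 genes and 0.02 over all genes.

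Eln (ENSMUSG00000029675.13) was at 0.756, 1.08, 0.997 and 0.508 CPM in the control libraries of batches P16 to P19 in that order. In the long knockdown it was at 3.74, 5.06, 5.11 and 1.70 CPM. Every knockdown library lay above every control library, with the P19 library the lowest on both sides. The means were 0.836 ± 0.259 and 3.90 ± 1.60 CPM (SD, n = 4), a log2 fold change of 2.24 (standard error 0.404, adjusted p = 0.000361).

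Fbln5 (ENSMUSG00000021186.10), the fibulin that tethers elastin to cells and microfibrils, was at 130, 143, 146 and 129 CPM in the control libraries. In the knockdown libraries it was at 293, 289, 250 and 160 CPM. The controls lay within a narrow band, and the P19 knockdown library was the one closest to it. The mean rose from 137 ± 8.56 to 248 ± 61.7 CPM (SD, n = 4; log2 fold change 0.86, standard error 0.177, adjusted p = 0.0016).

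Fbln2 (ENSMUSG00000064080.13), a fibulin that binds fibrillin-1 and elastin, moved the other way. Its control libraries held 844, 789, 755 and 766 CPM and its knockdown libraries 531, 489, 433 and 653. The groups did not overlap, and here the P19 knockdown library was the highest of its group. The mean fell from 789 ± 39.5 to 527 ± 93.5 CPM (log2 fold change -0.58, standard error 0.118, adjusted p = 0.00107).

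Lox (ENSMUSG00000024529.15) was at 525, 481, 446 and 419 CPM in the control libraries and at 356, 290, 287 and 241 in the knockdown libraries. The groups did not overlap, and the knockdown library was the lower one in all 4 batches. The mean went from 468 ± 45.7 to 294 ± 47.5 CPM (log2 fold change -0.67, standard error 0.118, adjusted p = 0.000302).

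The microfibril backbone Fbn1 (ENSMUSG00000027204.14) showed no called difference. It was at 402, 385, 358 and 294 CPM in the control libraries and at 363, 409, 362 and 381 in the knockdown libraries, and the groups overlapped. The log2 fold change was 0.08 with a 95% interval of -0.18 to 0.33 (adjusted p = 0.716). Fbln1 (ENSMUSG00000006369.15), a fibulin of basement membranes and elastic fibres, overlapped as well, at 0.648 to 1.35 CPM in controls and 0.584 to 1.96 in the knockdown (log2 fold change 0.43, 95% interval -0.56 to 1.42). Loxl1 (ENSMUSG00000032334.11), the crosslinker that depends on fibulin-5 for its placement, was at 0.462, 0.271, 0.449 and 0.542 CPM in controls and at 1.12, 1.11, 0.87 and 0.371 in the knockdown. Its P19 knockdown library lay inside the control range while the other 3 lay above it. Loxl1 was not called (log2 fold change 0.98, adjusted p = 0.084), and it was called without that library (1.23, adjusted p = 0.0248). Controls held 5 to 16 counts and knockdown libraries 7 to 24, so Loxl1 passed the filter on low counts mainly through knockdown libraries.

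With every P19 library left out of the fit, an alternative added after the values were seen, 5 of the 7 genes were called in untreated cells, 3 higher and 2 lower, against 40.0% of all genes. Eln then had a log2 fold change of 2.29, Fbln5 of 0.99, Fbln2 of -0.72, Lox of -0.64 and Loxl1 of 1.36 (adjusted p = 0.0153).

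Marker genes moved in the same comparison. The summed level of the 8 cycling markers was 33.4 to 153 CPM in the long knockdown against 108 to 240 in the control. All 8 had negative log2 fold changes (median -1.33), 1 of them called (Top2a), and 7 called lower with the batch block. Of the 6 fibroblast markers tested, Pdgfra and Lum were higher and Col14a1 and Pi16 lower, and their list's sum was 1860 to 2330 against 1890 to 2080 CPM. Of the 9 smooth muscle markers tested, Myh11, Smtn, Synpo2 and Itga8 were higher and Myocd lower, with a summed level of 238 to 336 against 243 to 278 CPM. Myh11 and Itga8 were at 3 counts or fewer in every untreated control library. Both thus rose from the floor and passed the filter through groups where they were higher. Of the 3 endothelial markers tested, Vwf was higher and Egfl7 lower, with a sum of 2.55 to 4.2 against 3.02 to 5.14 CPM. The part of these shifts in the changes of the elastic fibre genes was not tested. In bulk RNA, fewer cells of a type and less RNA per cell cannot be told apart.

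**Figure D2:**
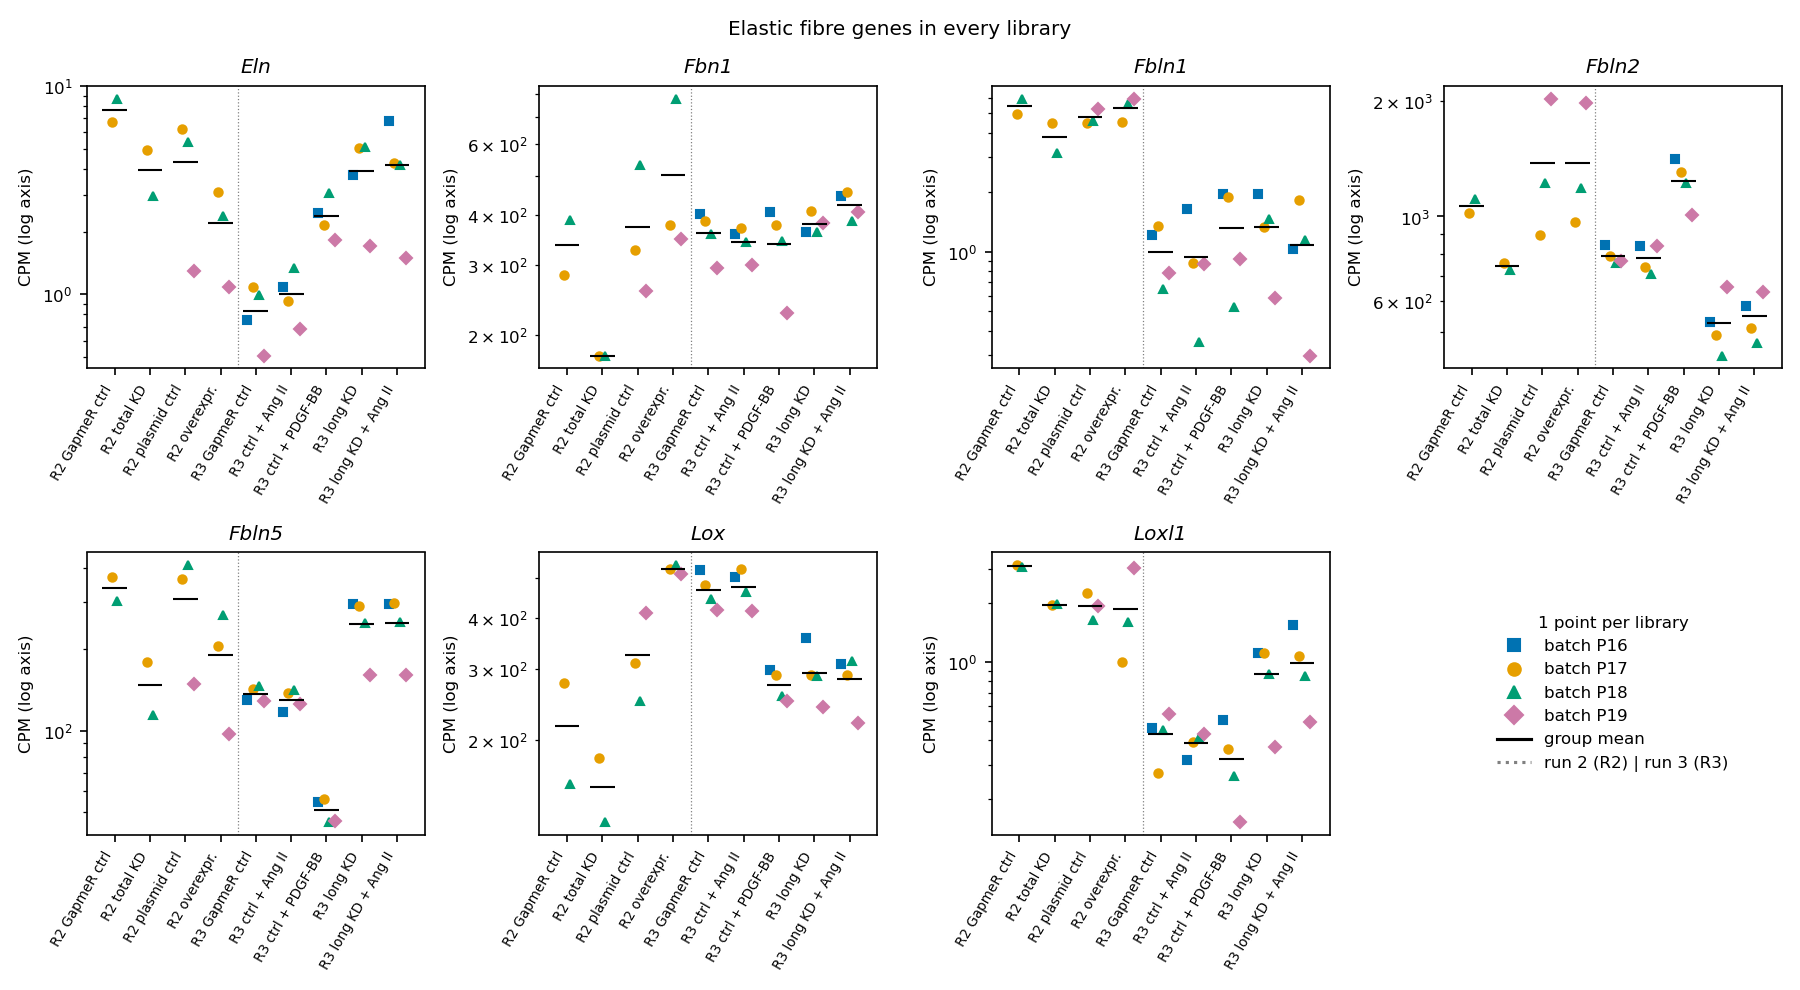
Level in CPM (log axis) of the 7 tested genes in each of the 30 libraries, by group, with the batch as the shape of the point and the group mean as a black line; R2 and R3 are runs 2 and 3, separated by a dotted line, KD is knockdown and ctrl control. Eln and Fbln5 are higher and Fbln2 and Lox lower in both long knockdown groups than in their controls, and the P19 library is the lowest for Eln in all 7 groups that hold one.

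Under angiotensin II, the peptide hormone of the renin system that constricts arteries, the same comparison was made in separate libraries of treated cells. Eln, Fbln5 and Loxl1 were higher and Fbln2 and Lox lower in the long knockdown. That made 5 of 7 called, 3 higher and 2 lower, against 26.7% of all genes, 13.4% higher and 13.3% lower. Of these, Loxl1 rested on only 5 to 30 counts a library. With the batch block 6 were called, against 41.3% of all genes. With the P19 libraries left out 6 were called as well, 4 higher and 2 lower, against 39.9%. The median log2 fold change was 0.31 over the 7 genes and 0.01 over all genes.

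Eln was at 1.08, 0.931, 1.34 and 0.678 CPM in treated control libraries and at 6.78, 4.26, 4.19 and 1.49 in treated knockdown libraries. The groups did not overlap, although the P19 knockdown library exceeded the highest control only narrowly. The log2 fold change was 2.05 (standard error 0.403, adjusted p = 0.000817). Fbln5 went from 117, 138, 141 and 125 CPM to 293, 296, 253 and 160. The step was again smallest in P19, and the log2 fold change was 0.94 (standard error 0.177, adjusted p = 0.000712).

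Fbln2 was at 837, 737, 708 and 836 CPM in treated controls and at 583, 511, 466 and 635 in treated knockdown libraries. It was lower in all 4 batches (log2 fold change -0.51, standard error 0.118, adjusted p = 0.00328). Lox was at 503, 527, 463 and 415 CPM against 308, 289, 314 and 221. Its groups did not overlap, and the log2 fold change was -0.75 (standard error 0.118, adjusted p = 9.62e-05).

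Loxl1 was at 0.316, 0.392, 0.409 and 0.432 CPM in treated controls and at 1.54, 1.08, 0.849 and 0.498 in treated knockdown libraries, on 5 to 30 counts a library. The groups did not overlap and the gene was called (log2 fold change 1.34, standard error 0.424, adjusted p = 0.0238). Treated controls held 5 to 8 counts and treated knockdown libraries 10 to 30, where the filter's minimum count was 10. Loxl1 thus passed the filter mainly through the knockdown libraries, where it was high. The call was lost with no filter on low counts (adjusted p = 0.0686), without control replicate 1 (0.0656) or 2 (0.0578), and without knockdown replicate 1 (0.109, log2 fold change 1.04) or 2 (0.0571). Fbn1 was at 357, 370, 341 and 299 CPM against 445, 456, 385 and 406. These groups did not overlap either, yet Fbn1 was not called (log2 fold change 0.31, adjusted p = 0.0919). It was called with the batch block (adjusted p = 0.0217), with only the groups compared (0.0198) and with the P19 libraries left out (0.26, adjusted p = 0.00452). Fbln1 overlapped, with a log2 fold change of 0.20 and a 95% interval of -0.82 to 1.23. In these libraries the summed cycling markers were at 31.8 to 138 CPM against 122 to 277 in treated controls. All 8 had negative log2 fold changes (median -1.56), 2 of them called (Top2a and Plk1), and all 8 called lower with the batch block. Called as well were 5 of 9 smooth muscle markers (4 higher, 1 lower), 3 of 6 fibroblast markers (1 higher, 2 lower) and 2 of 3 endothelial markers (1 higher, 1 lower). The part of these markers was not tested.

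**Figure D3:**
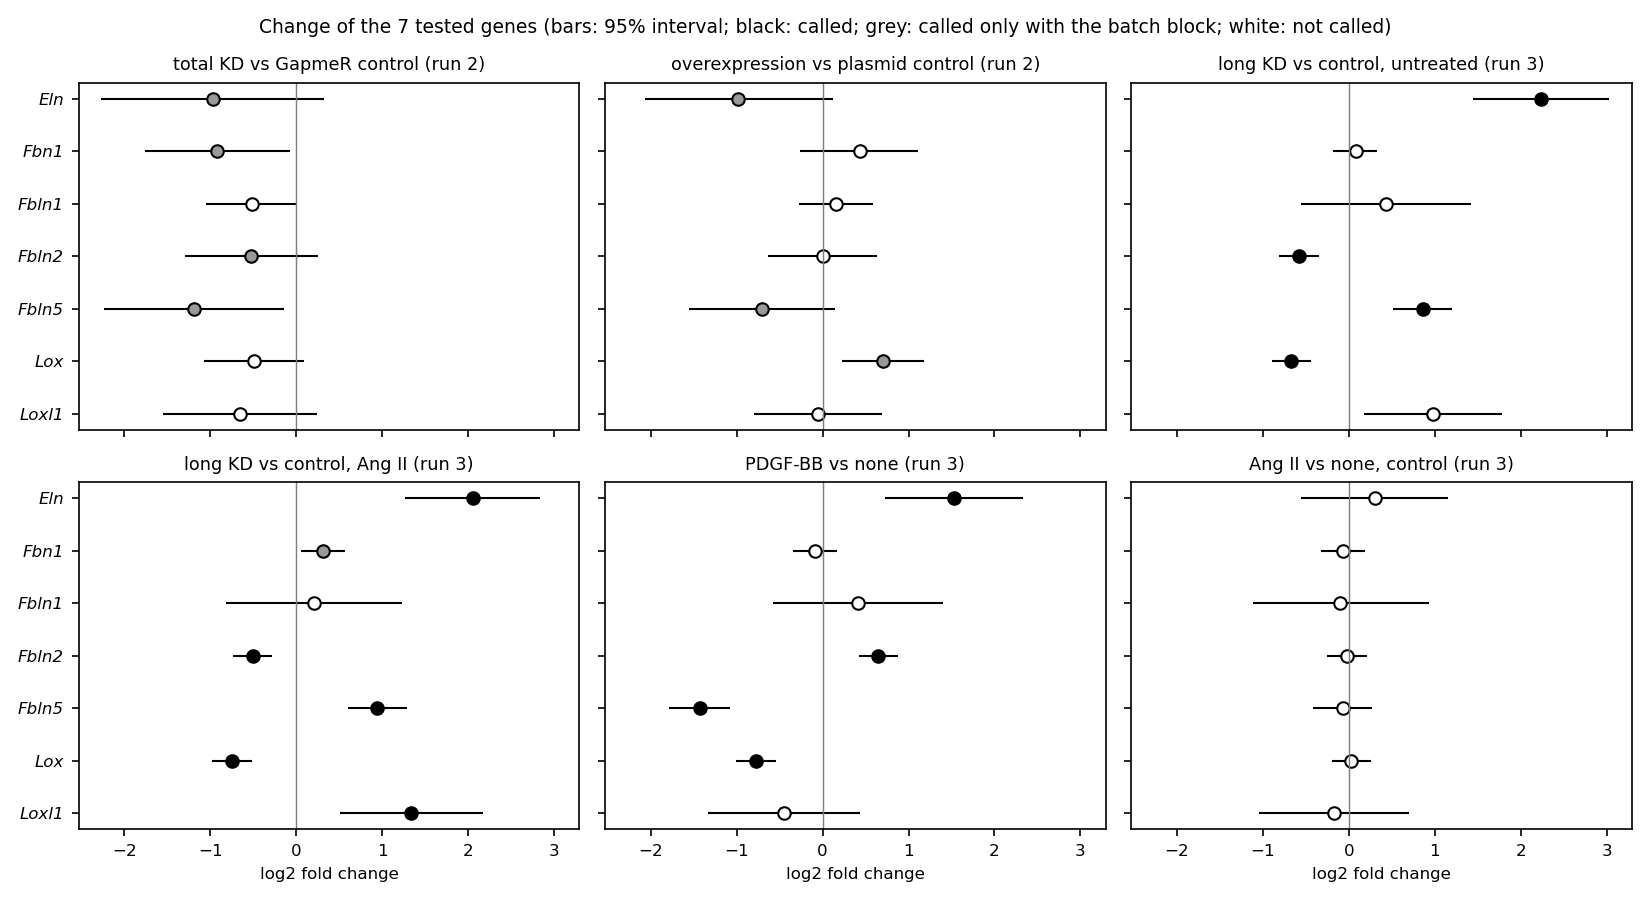
Log2 fold change of the 7 tested genes in 6 comparisons, with 95% intervals as bars; black points were called at an adjusted p under 0.05, grey points only with the batch block, white points in neither. In both long knockdown panels Eln and Fbln5 lie to the right of 0 and Fbln2 and Lox to the left, and with PDGF-BB Fbln2 and Fbln5 change sides.

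Angiotensin II against no treatment gave no call for any of the 7 genes. In control cells 0% of all genes were called, and in long knockdown cells and for the interaction of knockdown with angiotensin II the share was likewise 0%. At an unadjusted p under 0.05 there were 156, 174 and 166 genes in these 3 comparisons by edgeR, and DESeq2 called 1, 0 and 1. The genes' log2 fold changes ran from -0.17 (Loxl1) to 0.30 (Eln) in control cells and from -0.32 (Fbln1) to 0.18 (Loxl1) in knockdown cells. For the well-measured genes in control cells the 95% intervals were -0.42 to 0.27 for Fbln5, -0.25 to 0.21 for Fbln2, -0.20 to 0.26 for Lox and -0.33 to 0.19 for Fbn1. For Eln the interval was -0.56 to 1.15. The interaction, which asks whether the knockdown effect differed with angiotensin II, ran from -0.22 (Fbln1) to 0.35 (Loxl1), with a 95% interval for Eln of -1.3 to 0.91.

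PDGF-BB, a growth factor that drives smooth muscle proliferation, was given to control cells only. Eln and Fbln2 rose, and Fbln5 and Lox fell. Of the 7 genes, 4 were called, 2 higher and 2 lower, against 43.6% of all genes, 23.6% higher and 20.0% lower. The same count was found with the P19 libraries left out, against 48.9% of all genes. The median log2 fold change was -0.09 over the 7 genes and -0.02 over all genes.

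Fbln5 showed the largest fall, from 130, 143, 146 and 129 CPM to 54.5, 56.1, 45.9 and 46.5. All 4 treated libraries were below every other library of run 3, and the log2 fold change was -1.43 (standard error 0.181, adjusted p = 5.16e-06). Lox fell from 525, 481, 446 and 419 CPM to 298, 289, 257 and 250, by about the same factor in each batch (log2 ratios of -0.82 to -0.73). Its log2 fold change was -0.77 (standard error 0.118, adjusted p = 2.68e-05).

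Fbln2 rose with PDGF-BB to 1410, 1310, 1220 and 1010 CPM, a log2 fold change of 0.65 (standard error 0.118, adjusted p = 0.000163). Its treated libraries lay above all other libraries of run 3, in the same libraries in which Fbln5 was lowest. Eln was at 2.47, 2.16, 3.06 and 1.83 CPM with PDGF-BB. Every treated library exceeded every untreated control, and the log2 fold change was 1.53 (standard error 0.409, adjusted p = 0.00487). Fbn1 was at 406, 377, 343 and 227 CPM and was not called (log2 fold change -0.09, 95% interval -0.35 to 0.17). Fbln1 (0.41) and Loxl1 (-0.45) were not called either, with 95% intervals of -0.58 to 1.40 and -1.33 to 0.43.

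In the same libraries all 8 cycling markers rose, their summed level going from 108 to 240 CPM in untreated controls to 1730 to 1810 CPM. The summed fibroblast markers were at 685 to 997 CPM against 1890 to 2080, with Dcn, Col14a1, Pdgfra and Lum lower and Pi16 higher (0.57, adjusted p = 0.0466). With the batch block Pi16 was not called (adjusted p = 0.055). The summed smooth muscle markers were at 199 to 223 CPM against 243 to 278, with Acta2 called lower and Smtn and Synpo2 called higher. Of the 9 smooth muscle markers tested, 2 had positive and 7 negative log2 fold changes (median -0.78). Of the 3 endothelial markers tested, Egfl7 was higher and Pecam1 lower, with a sum of 3.59 to 4.83 against 3.02 to 5.14 CPM. The mouse gene taken as CASC15 was also lower with PDGF-BB, at 3.61 against 5.52 CPM (adjusted p = 0.0101). The part of these shifts in the changes of the elastic fibre genes was not tested. The long knockdown and PDGF-BB comparisons share the untreated control libraries, so their values are set side by side only: Eln 2.24 and 1.53, Lox -0.67 and -0.77, Fbln2 -0.58 and 0.65, and Fbln5 0.86 and -1.43 on the log2 scale.

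The balance between the 2 abundant fibulins differed between these groups. Per kilobase, the ratio of Fbln5 to Fbln2 was 0.142 to 0.178 in the untreated control libraries of run 3, and 0.129 to 0.183 with angiotensin II. It was 0.226 to 0.544 in the untreated long knockdown and 0.0347 to 0.0423 with PDGF-BB. The 3 ranges of control, long knockdown and PDGF-BB did not overlap. This follows from the opposite moves of the 2 genes given above and adds nothing to them. In run 2 the ratio spread more widely, from 0.0677 to 0.376 in the control plasmid libraries alone.

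In run 2 the libraries labelled total knockdown held less of all 7 genes on average, and no gene was called, against 2.07% of all genes. With the batch block 4 were called, all lower, against 14.4% of all genes. With the P19 libraries left out of the fit 1 was called, Fbln5 (-1.20, adjusted p = 0.0188), against 6.86%. With no filter on low counts Fbn1 (adjusted p = 7.03e-05) and Fbln5 (1.31e-08) were called, against 4.44% of all genes in that fit. With only the groups compared Fbn1 (0.0149), Fbln2 (0.0437) and Fbln5 (0.0237) were, against 7.34%. The median log2 fold change was -0.65 over the 7 genes and 0.01 over all genes. Only 2 libraries stood on each side, from batches P17 and P18.

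Fbln5 was at 369 and 303 CPM in the control and at 180 and 114 in the libraries labelled total knockdown (log2 fold change -1.19, standard error 0.536, adjusted p = 0.398, and 0.0146 with the block). Fbn1 was at 283 and 388 CPM against 178 in both (-0.92, standard error 0.431, adjusted p = 0.424, with the block 0.0299). Both genes were lower in each batch, and neither gene's groups overlapped. Eln was at 6.73 and 8.69 CPM against 4.91 and 2.96 (-0.97, adjusted p = 0.63, with the block 0.0362). Fbln2 was at 1020 and 1110 CPM against 757 and 726 (-0.53, adjusted p = 0.673, with the block 0.0162). Fbln1 (-0.52), Lox (-0.49) and Loxl1 (-0.65) were called in neither fit. The Lox groups overlapped, and with 1 library left out its log2 fold change ran from -0.86 to -0.02. In these libraries the summed leukocyte markers were at 17.3 to 21.2 CPM against 0.713 to 0.840 in the control, with Cd68 and Csf1r higher and Ptprc, Adgre1 and Cd3e at 3 counts or fewer. Csf1r was itself at 3 counts or fewer in every control GapmeR and control plasmid library of run 2, so it rose from the floor. Summed cycling markers were at 83.1 to 150 against 30.8 to 49.0 CPM, with 0 of 8 called and all 8 called higher with the block. The summed fibroblast markers were at 830 to 869 against 1010 to 1100, with 0 of 7 called and 3 called lower with the block. Of 9 smooth muscle markers Myh11 was called higher, and with the block 2 were higher and 1 lower. Summed endothelial markers were at 7.12 to 11.7 against 3.34 to 4.74 CPM, with 0 of 3 called and 2 called higher with the block. The part of these markers in the lower levels was not tested.

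The plasmid overexpressing total CASC15 and the control plasmid had 3 libraries each. None of the 7 genes was called, against 1.65% of all genes, and 3 were called with the batch block, 1 higher and 2 lower, against 17.7% of all genes. Without P19 none was called, against 5.57%. With no filter on low counts Fbln5 (adjusted p = 0.000111) and Lox (0.000365) were called, against 4.56% of all genes in that fit. The median log2 fold change was 0 over the 7 genes and 0 over all genes. Lox was at 309, 250 and 412 CPM with the control plasmid and 528, 538 and 511 with overexpression, without overlap. It had a log2 fold change of 0.70 (standard error 0.244, adjusted p = 0.217), with the block 0.74 (adjusted p = 0.0357). Fbln5 was at 365, 409 and 149 CPM against 205, 267 and 97.2, lower within each batch although the groups overlapped (-0.70, adjusted p = 0.492, with the block 0.0457). Eln was at 6.21, 5.39 and 1.3 CPM against 3.10, 2.39 and 1.09, also lower in each batch (-0.98, adjusted p = 0.45, with the block 0.0372). The spread in both genes came largely from the P19 library of each group. Fbln2 was at 894, 1220 and 2030 CPM against 969, 1190 and 1980, with a log2 fold change of 0 and a 95% interval of -0.63 to 0.63. Fbn1 (0.43), Fbln1 (0.16) and Loxl1 (-0.05) were called in neither fit. Summed cycling markers were at 123 to 528 CPM against 62.9 to 360. All 8 had positive log2 fold changes (median 0.67), 0 of them called and all 8 called higher with the block. Of 9 smooth muscle markers 8 had negative log2 fold changes (median -0.84), with 0 called and 2 called lower with the block. Of 7 fibroblast markers 0 were called, and with the block 1 was higher and 2 lower. The part of these markers in the values of the elastic fibre genes was not tested.

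The control plasmid was also set against the control GapmeR, which differ in the molecule delivered. None of the 7 genes was called, against 1.18% of all genes, and none with the batch block, against 2.99%. Lox had a log2 fold change of 0.58 (adjusted p = 0.558, and 0.0229 with no filter on low counts, where it was called, against 3.7% of all genes in that fit), Eln of -0.83 (0.632) and Loxl1 of -0.67 (0.603). The 95% interval for Eln, -1.99 to 0.32, takes in the log2 fold changes of Eln in the other comparisons of run 2. Only the plasmid group of these 2 holds a P19 library, its lowest for Eln. The log2 fold change of Eln was -0.41 with P19 left out and -0.5 with the block. Summed cycling markers were at 62.9 to 360 CPM with the plasmid against 30.8 to 49 with the GapmeR. All 8 had positive log2 fold changes (median 2.24), with 0 called and 4 called higher with the block, and their part was not tested.

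The effects of the GapmeR labelled total and of the GapmeR against long CASC15 were then compared with each other in 1 fit over all 30 libraries, a test added after the values were seen. Eln had a log2 fold change of -0.97 in the former and 2.24 in the latter, a difference of -3.22 (standard error 0.747, adjusted p = 0.00476). Fbln5 had -1.19 and 0.86, a difference of -2.06 (standard error 0.485, adjusted p = 0.00617). These were 2 of 7 genes called, against 13.2% of all 16881 genes of that fit. With the batch block Fbn1 (adjusted p = 0.00204) and Loxl1 (0.0359) were called as well, 4 of 7, against 31.8% of all genes. Without replicate 2 of the libraries labelled total knockdown, Eln (-2.89, adjusted p = 0.0612) and Fbln5 (-1.76, adjusted p = 0.0828) were no longer called. For Fbln2 (0.04, standard error 0.335) and Lox (0.16, standard error 0.279), lower in both comparisons, the difference was not called. The oligonucleotide and the sequencing run differ together here and cannot be told apart.

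The starting levels in the untreated control GapmeR groups of the 2 runs were far apart for most of the genes. Eln was at 7.71 ± 1.39 CPM in run 2 (SD, n = 2) and 0.836 ± 0.259 in run 3 (n = 4), Fbln1 at 5.46 ± 0.663 and 1.00 ± 0.339, and Loxl1 at 3.09 ± 0.0398 and 0.431 ± 0.114. Fbln5 was at 336 ± 46.6 and 137 ± 8.56 CPM, Lox at 216 ± 85.6 and 468 ± 45.7, and Fbln2 at 1070 ± 65.3 and 789 ± 39.5. Fbn1 was at 336 ± 74.3 and 359 ± 47.5. The runs were scaled separately, and these levels are given side by side without a test.

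Batch P19 stood apart for several of the genes. Of the 7 groups with a P19 library, that library was the lowest for Eln in 7, for Lox in 6, for Fbn1 in 5 and for Fbln5 in 5. The log2 ratio of the P19 library to the mean of the others ran from -2.15 to -0.48 for Eln and from -1.37 to -0.07 for Fbln5. For Fbln2 the P19 library was the highest in 4 of 7 groups, reaching 2030 CPM with the control plasmid. The labels do not say what the batch is.

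Of 31 further genes of the pathway, 25 were tested in run 3 and 27 in run 2. In the untreated long knockdown 12 of the 25 were called, 4 higher and 8 lower, and under angiotensin II 13, 5 higher and 8 lower. These shares stand beside 25% and 26.7% of all genes. With the batch block 17 were called untreated, 7 higher and 10 lower, and 16 under angiotensin II, 8 higher and 8 lower, beside 40.6% and 41.3%. The median log2 fold change of the list was -0.10 and -0.09. Among microfibril and fibre partners, Ltbp1, which ties latent TGF-beta to fibrillin, rose from 316 ± 58.6 to 549 ± 123 CPM (log2 fold change 0.80, adjusted p = 0.00703). Emilin2, an elastin microfibril interface protein, fell from 105 ± 9.32 to 41.1 ± 10.0 CPM (-1.35, adjusted p = 3.25e-06). Among the other fibulins, hemicentin-1 (Hmcn1) rose from 18.6 ± 3.57 to 60.1 ± 18.2 CPM (1.69, adjusted p = 0.000102). The crosslinking enzyme Loxl2 fell from 258 ± 25.6 to 118 ± 18.3 CPM (-1.14, adjusted p = 2.88e-07). Of the 6 other crosslinking enzymes and activators 3 were called, Loxl2 and Loxl4 lower and Loxl3 higher (31.2 to 41.9 CPM), the last 2 named after their values were seen. Under angiotensin II the 4 named by the largest changes were again Hmcn1 (2.00), Ltbp1 (0.90), Emilin2 (-1.26) and Loxl2 (-1.11). Both elastin-cutting proteases tested, Mmp2 (-0.24) and Ctsl (-0.31), were lower in untreated cells, as were Glb1 (-0.30) and Neu1 (-0.47) of the 3 genes of the elastin receptor complex, these 4 being named after their values were seen.

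With PDGF-BB 12 of the 25 were called, 4 higher and 8 lower, beside 43.6% of all genes, and with the batch block 18, 5 higher and 13 lower, beside 54.5%. The crosslinking enzyme Loxl3 rose from 31.2 ± 0.991 to 62.0 ± 4.17 CPM (log2 fold change 0.99, adjusted p = 1.06e-10), and Emilin2 rose to 161 ± 10.1 CPM (0.62, adjusted p = 0.00229). Hmcn1 fell to 2.73 ± 0.696 CPM (-2.76, adjusted p = 1.28e-06). Adamts6, a protease that binds fibrillin-1, fell from 37.2 ± 8.92 to 16.4 ± 4.36 CPM (-1.18, adjusted p = 0.0018). Hmcn1 and Fbln5 were higher in the long knockdown and lower with PDGF-BB, and Emilin2 and Fbln2 the reverse, both comparisons sharing their control libraries. In run 2, none of 27 was called in the libraries labelled total knockdown, beside 2.07% of all genes, and 5 were with the batch block, beside 14.4% (Ltbp1, Ltbp3, Ltbp4 and Efemp1 lower, Ctsk higher). Ctsk passed the filter only through the libraries labelled total knockdown. It held 30 to 36 counts there and at most 4 in a library of the run's other groups. With overexpression 2 of 27 were called, Emilin2 higher (0.68, adjusted p = 0.0481, 0.000188 to 0.185 over the alternatives) and Hmcn1 lower (-2.87, adjusted p = 0.0232, 6.25e-32 to 0.0968), beside 1.65% of all genes. With the block 8 were called, 3 higher and 5 lower, beside 17.7%. Between the control plasmid and the control GapmeR 1 was called, Adamts6 (1.06, adjusted p = 0.0273, 1.07e-06 to 0.391 over the alternatives), beside 1.18% of all genes.

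**Figure D4:**
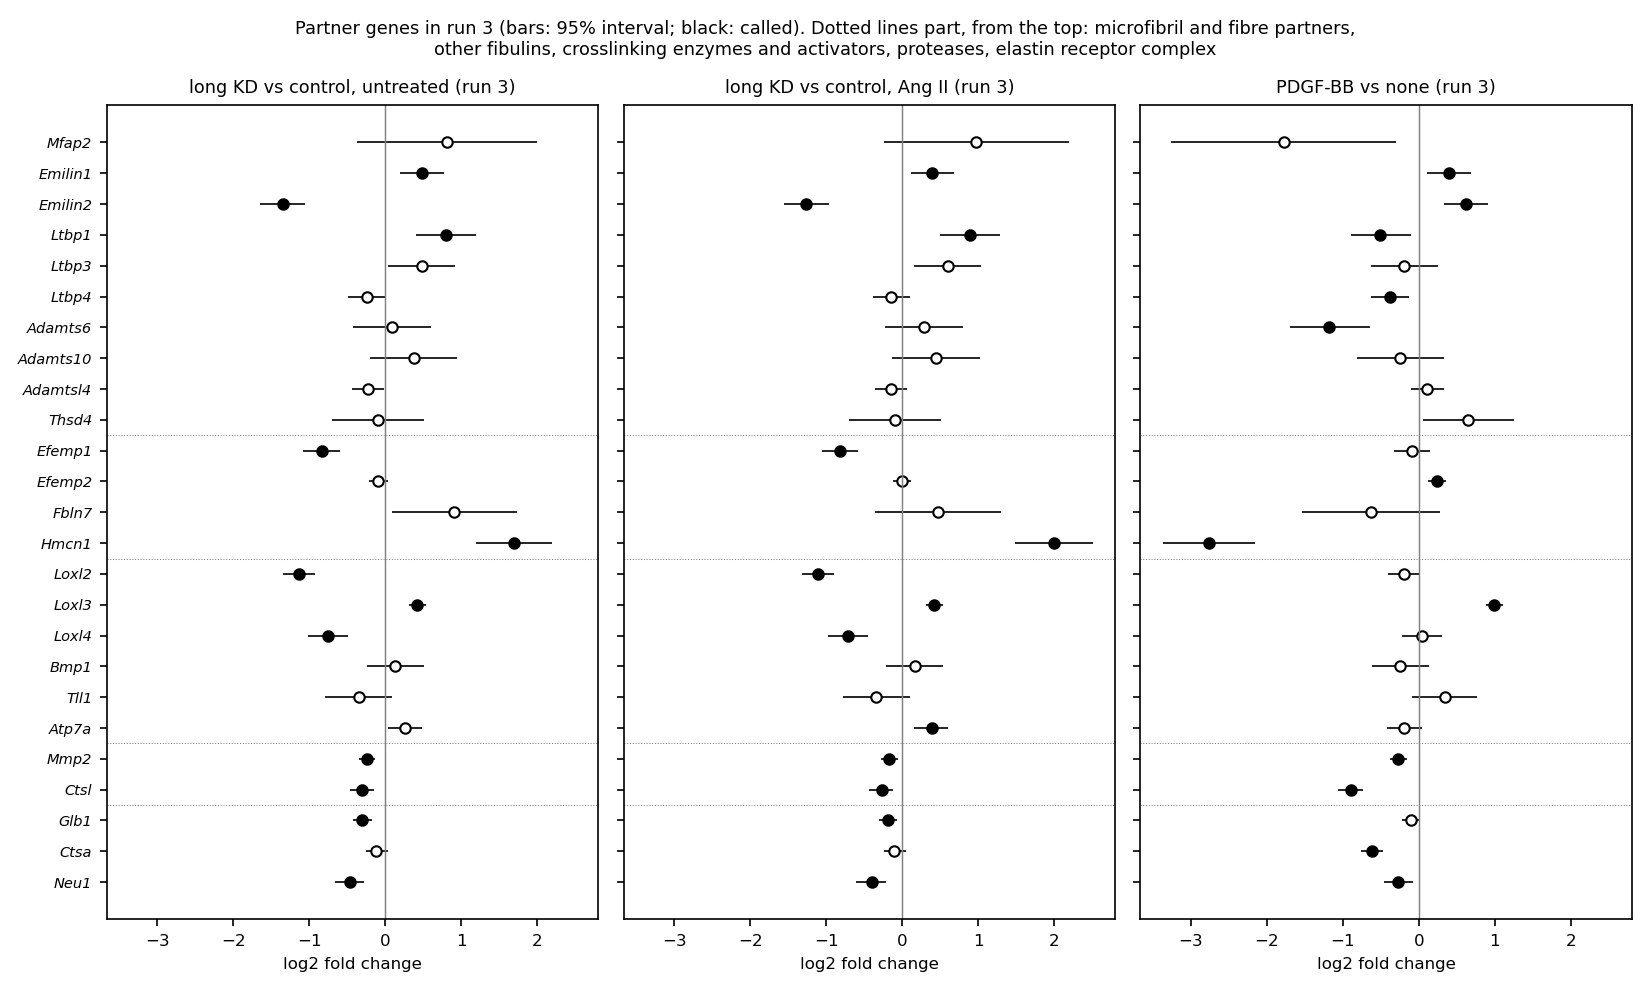
Log2 fold change of the 25 pathway genes tested in run 3, with 95% intervals as bars and called genes in black, in the long knockdown without treatment, the long knockdown under angiotensin II, and PDGF-BB against none; KD is knockdown. Hmcn1 lies to the right of 0 in both knockdown panels (1.69 and 2.00) and to the left with PDGF-BB (-2.76), and Emilin2 does the reverse.

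The genes whose group means followed those of Eln and Lox most closely were looked for over the 9 groups, as a description without a test. Likeness was the root mean square difference of log2 (CPM + 0.5), each gene centred within its run, among 9961 candidate genes for Eln and 9960 for Lox. For Eln the nearest were Ndrg2 (0.273), Ncam1 (0.278), which encodes a neural cell adhesion molecule, and Calcrl (0.30), the calcitonin receptor-like receptor, where the median candidate was at 0.686. Ncam1, for example, was at 11.4 CPM in the untreated control of run 3 and 31.2 in the untreated long knockdown, and in run 2 at 63.1 with the control plasmid and 19 with overexpression. Calcrl did not follow Eln in the libraries labelled total knockdown, at 30.7 against 28.4 CPM in their control. For Lox they were Aox3 (0.144), an aldehyde oxidase, Gda (0.151), guanine deaminase, and Nupr1 (0.156), with a median candidate at 0.548. A gene without any change between groups would be at 0.665 from Eln and 0.524 from Lox, close to the median candidates. Like Lox, Aox3 was higher with overexpression (13.8 against 8.85 CPM) and lower with PDGF-BB (10.3 against 23.2) and in the untreated long knockdown (15.3) in its group means. All groups of a run share their sequencing run and the genes' values share the same libraries.

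In the annotation used for symbols, genes on the opposite strand overlap exons of Fbn1 (2442 bases, Gm9913), Eln (267 bases, Gm30003), Fbn2 (129 bases), Mfap4 (89 bases) and Lox (30 bases). The sources used here do not say whether counting used the strand, so reads from such stretches cannot be told apart.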

How the data were processed

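RNA sequencing of 30 libraries in 9 groups had been deposited as 1 table of expected counts. The authors made these gene values with STAR 2.7.11b and RSEM 1.3.1 per the submitters' processing notes. Those notes name the builds GRCm39 and mm10 without a role, so no gene coordinates are given beyond the RefSeq promoter windows (GRCm38.p6). Reads were paired, 75 bp, and strandedness is not given in the sources used here. Symbols and exon lengths came from GENCODE M21 (51486 of 78334 identifiers matched). Expected counts were rounded. Runs 2 and 3 were fitted separately over all groups of a run with edgeR 4.0.16 (limma 3.58.1, R 4.3.3), using TMM factors, filterByExpr (minimum count 10, minimum total 15) and robust quasi-likelihood tests. That left 15350 and 15103 genes. Calls are at a Benjamini-Hochberg adjusted p under 0.05 over all genes tested, and 95% intervals are normal intervals from the SE. CPM uses the TMM-scaled total over tested genes. The scripts were tested on simulated data.

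Alternatives were DESeq2 1.42.0, its scaling, no filter, only the groups compared, a filter at a mean CPM of 1, a batch block and leaving out each library. Leaving out P19, and the fit over both runs, were added after the values were seen. Within a run, each replicate number of the labels goes with the same batch in every group, and the block used that batch. Deviations from group means correlated within a batch (mean r 0.365 in run 2 and 0.362 in run 3, against -0.192 and -0.094 between batches), so the block pairs the libraries. The genes and lists were chosen with earlier results of these data known. Named pathway genes are the called ones with the largest changes, up to 2 in each direction per comparison. The likeness search used symbols with a mean of at least 5 CPM in both runs. Depth limits the scarce genes, and 3 counts were taken as the limit for a count of 0.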

Additional observations from a re-analysis of the deposited data

Results flagged for a closer look

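The effect of the GapmeR labelled total and that of the GapmeR against long CASC15 differed for Eln and for Fbln5 by a test of the difference itself (edgeR, 1 fit over 30 libraries). For Eln the difference was -3.22 on the log2 scale (adjusted p = 0.00476), from -0.97 in the libraries labelled total knockdown, lower in 2 of 2 batches, and 2.24 in the long knockdown, higher in 4 of 4. For Fbln5 it was -2.06 (adjusted p = 0.00617), from -1.19, lower in 2 of 2 batches, and 0.86, higher in 4 of 4. Neither difference was called without replicate 2 of the libraries labelled total knockdown, where they were -2.89 and -1.76. Oligonucleotide and sequencing run cannot be told apart in this difference, and 2610307P16Rik was not lower in the libraries labelled total knockdown. Dixon's test for a single outlying library, run on 36 combinations of a gene and a run 3 group of 4 libraries, flagged 0 at its 95% critical value. That test looks at 1 group at a time, and the P19 library was still the lowest for Eln in all 7 groups that hold one.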

How the results depend on the processing

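In the comparisons made within a run, of 922 values of the tested genes under the alternatives, 844 kept their direction and side of the threshold, 5 lost and 21 gained a call, and 52 turned direction, none of them called in either fit. The difference between the 2 GapmeR effects is not in that tally: there Eln and Fbln5 each lost the call without replicate 2 of the libraries labelled total knockdown, Fbn1 gained one with the block, and Loxl1 gained one with the block (-1.56), without P19 (-2.02) and without long knockdown replicate 4 (-1.88). In the long knockdown and with PDGF-BB, Eln, Fbln5, Fbln2 and Lox kept their calls under every alternative run. Batches pair the libraries. With the replicate block the genes called went from 317 to 2209 (labelled total knockdown), 253 to 2721 (overexpression), 181 to 459 (plasmid against GapmeR), 3783 to 6126 and 4033 to 6238 (long knockdown, untreated and with angiotensin II) and 2229 to 5362 (difference between the GapmeR effects). The block changed no call of the 7 genes other than those printed beside their results. Called genes in the same order of the 3 comparisons of run 2 were 1325, 1363 and 1106 with no filter, 719, 807 and 347 with DESeq2, and 1079, 66 and 101 with only the groups compared. A mean CPM of at least 1 gave 190 for the first. With P19 left out they were 1041, 844, 6062 (long knockdown, untreated) and 4773 (difference). For angiotensin II in control cells DESeq2 and only the groups compared each gave 1 gene in place of 0, and DESeq2 gave 1 for the interaction. With 1 library left out the counts ran from 4 to 188, 86 to 867 and 67 to 277 in run 2, and 943 to 3017 for the difference. The causes were not tested.

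Turned directions, all of small values, were Fbln2 with overexpression (0.01 with the block, 0.03 without P19), Fbln2 (-0.01, -0.02) and Fbln5 (0.20, 0.20) for plasmid against GapmeR, and Fbn1 in the untreated long knockdown (-0.02 without P19). With 1 library left out, ranges that cross 0 were, for overexpression, Fbn1 -0.04 to 0.77, Fbln2 -0.36 to 0.39 and Loxl1 -0.59 to 0.25. For plasmid against GapmeR they were Fbn1 -0.21 to 0.39, Fbln2 -0.01 to 0.60 and Fbln5 -0.39 to 0.20. For the long knockdown they were Fbn1 -0.02 to 0.13 untreated and Fbln1 -0.17 to 0.60 with angiotensin II. For angiotensin II in control cells they were Fbln1 -0.50 to 0.17, Fbln2 -0.06 to 0.03 and Lox -0.02 to 0.09. In long knockdown cells they were Eln -0.24 to 0.38, Fbln2 -0.02 to 0.18, Fbln5 -0.15 to 0.18, Lox -0.14 to 0.05 and Loxl1 -0.11 to 0.41. For the interaction they were Eln -0.53 to 0.09, Fbln1 -0.60 to 0.18, Fbln2 0 to 0.20, Fbln5 -0.07 to 0.25 and Lox -0.16 to 0.03. For PDGF-BB it was Fbn1 -0.20 to 0.03, and for the difference between the GapmeR effects Fbln2 -0.04 to 0.18 and Lox -0.18 to 0.67. Depth limits Eln, Fbln1 and Loxl1 most, and Fbn2, Mfap4 and Mfap5 could not be tested.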
